A study of Pyrus x bretschneideri with 2 samples.

Results

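The 7 pear genes described here carry, as their best protein database hit in the authors' deposited table, the name 7-deoxyloganetin glucosyltransferase-like. They are Pbr033545, Pbr021702, Pbr021703, Pbr021706, Pbr021709, Pbr007516 and the assembled locus XLOC_018857, out of 45022 genes measured. Descriptions exist only for the 381 genes that the authors called different, so the 7 genes were chosen by a name and, through that table, by their difference between the libraries. That difference is therefore given as a description and supports nothing by itself. Genes of the same name that were not called cannot be recognised in the files.

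RNA came from tissue around wounds in pear fruit (Pyrus x bretschneideri), kept for 3 days at 20 °C. The wounds of the one group had received the yeast Meyerozyma guilliermondii, and those of the other sterile distilled water as the control. Each group held 1 library, called here the yeast library and the water library, so no value below has a replicate check and no test was made. The labels do not say how many fruit went into a library. In such tissue samples, fewer cells of a type and less RNA per cell cannot be told apart.

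UDP-glycosyltransferases move a sugar from a nucleotide sugar, most often UDP-glucose, onto a small acceptor such as a hormone, phenol, terpenoid or toxin, which makes it more soluble and fit for storage in the vacuole. 7-deoxyloganetin is an iridoid, a kind of monoterpenoid, and its glucosylation gives an iridoid glucoside. The database enzymes named after this reaction come from gardenia and periwinkle. In other plants the same enzyme group, UGT85, holds enzymes that act on unrelated acceptors, among them the mandelonitrile glucosyltransferases of cyanogenic glucoside synthesis in almond and sorghum. The name of the pear genes is that of their closest database entry, and the acceptor of their enzymes was not measured.

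Most of the 7 genes were placed in the enzyme family by further descriptions in the deposited table. The Pfam family of UDP-glucosyl transferases was assigned to 5 of them. Pbr021703 and Pbr021709 had no Pfam family. All 7 genes carried the class GC of the KOG database, as did every other called UDP-glycosyltransferase. Only Pbr033545 had Gene Ontology terms, which were metabolic process and transfer of hexosyl groups. The closest Swiss-Prot entry was UGT85A24 of Gardenia jasminoides for 4 genes, which are Pbr033545, Pbr007516, Pbr021709 and XLOC_018857. For the other 3, Pbr021702, Pbr021703 and Pbr021706, it was UGT85A23 of Catharanthus roseus. Pbr033545 thus shared its closest entry with 3 of the genes that differed in the opposite direction.

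Pbr033545 was high in the yeast library and the other 6 genes were high in the water library. Levels are given as FPKM, read fragments for each kilobase of a gene's length, relative to the size of the library. Pbr033545 stood at 5.89 FPKM in the yeast library, against 0.0801 FPKM in the water library. Pbr021702 stood at 0.252 FPKM in the yeast library, against 12.7 FPKM in the water library, the highest level of the 7 genes in either library. Pbr021706 stood at 0.144 FPKM in the yeast library, against 11.2 FPKM in the water library. Both genes were below 1 FPKM with the yeast and above 10 FPKM with water. Pbr007516 stood at 0.189 FPKM in the yeast library, against 8.99 FPKM in the water library. Pbr021703 was listed at 0 in the yeast library, against 4.71 FPKM in the water library. Pbr021709 was listed at 0 in the yeast library, against 2.94 FPKM in the water library. XLOC_018857, the weakest of the 6, was likewise listed at 0 in the yeast library, against 1.91 FPKM in the water library. In the yeast library 1 of the 7 genes thus stood above 1 FPKM, and in the water library 6 of the 7 did.

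**Figure D1:**
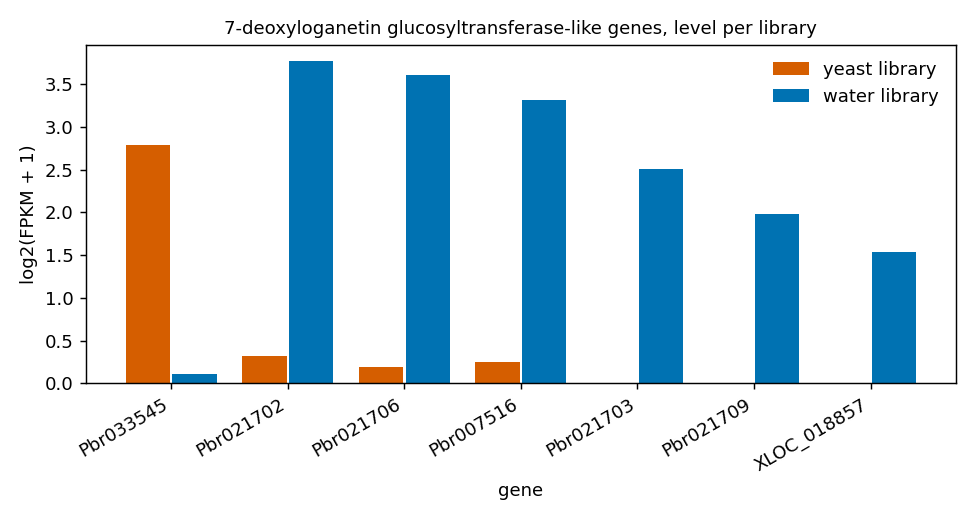
Level of each of the 7 genes as log2(FPKM + 1), with the yeast library in orange to the left of the water library in blue, 1 library each. Pbr033545 has its high bar in the yeast library (5.89 FPKM) and the other 6 genes have theirs in the water library (1.91 to 12.7 FPKM).

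On the scale log2((yeast + 1)/(water + 1)), which understates differences of low genes, Pbr033545 had a ratio of 2.67. The other 6 genes lay between -3.45 for Pbr021702 and -1.54 for XLOC_018857, with Pbr021706 at -3.41, Pbr007516 at -3.07, Pbr021703 at -2.51 and Pbr021709 at -1.98. By a 2-fold size rule on this scale 1 gene of the 7 was higher in the yeast library and 6 were lower. This rule was applied to the 22603 genes that reached 1 FPKM in the yeast or the water library, and it put 3.32% of them higher and 3.00% lower. Since the 7 genes come from the table of called genes, nothing is read from this contrast. The median ratio of the 7 genes was -2.51, beside 0.01 for all 22603 genes and -1.59 for the called genes among them. Of the 22603 genes, 53 had a ratio at least as high as Pbr033545, itself included, and 41 had one at least as low as Pbr021702.

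The authors' deposited table gives Pbr033545 a log2 fold change of 4.98. For the other 6 genes the authors' deposited table gives -5.38 for Pbr021703, -5.66 for Pbr007516, -5.81 for Pbr021702, -6.13 for Pbr021709, -6.30 for Pbr021706 and -8.14 for XLOC_018857. The table lists 0.846% of all 45022 genes, 0.318% as higher in the yeast library and 0.529% as lower. Of the listed genes 37.5% were higher, against 1 of these 7. The median of the listed lower genes was -5.11 and that of the listed higher genes 3.58, so each of the 7 genes lay further from 0 than the median of its own direction in the authors' deposited table. The smallest absolute value in that table was 2.66, well inside that of every one of the 7 genes.

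Numbers of reads were inferred from the deposited log2 values, and these inferred numbers are called reads below. Among genes listed at 0 in one library with a deposited fold above 100, most had a fold that, less 1, fell on evenly spaced steps. From these steps a pair of whole read numbers could be found for 331 of the 381 listed genes (86.9%), within a tolerance of 1e-05 read. For the 7 genes the largest departure from a whole number was 1.77e-06 read. One step was read as 1 read, since no larger unit tried gave whole numbers, and the smallest pair of read numbers was used. The ratio of the steps, 1.05, scales the reads of the yeast library up against those of the water library. It was used below as the scaling between the libraries, and whether it is their ratio of sequencing depth is not stated. The intervals below are exact 95% Poisson or binomial intervals that cover counting error only, and reads made by PCR are not independent molecules.

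Pbr033545 had 306 reads in the yeast library (273 to 342), against 10 in the water library (4.80 to 18.4). With this scaling Pbr033545 was 32.0-fold higher in the yeast library, with an interval of 17.2 to 67.4. Pbr021706 had 7 reads in the yeast library, against 587 in the water library, and was 80.2-fold lower in the yeast library (38.7 to 200.4). Pbr007516 had 9 reads in the yeast library, against 482 in the water library, and was 51.2-fold lower (26.8 to 112.7). Pbr021702 had 4 reads in the yeast library, against 241 in the water library, and was 57.6-fold lower (22.2 to 213.3).

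The 3 genes listed at 0 FPKM in the yeast library were not alike in their reads. Pbr021703 had 3 reads there, against 136 in the water library, which gives a ratio of 43.4-fold lower in the yeast library (14.5 to 212.9). Pbr021709 had 1 read in the yeast library, against 82 in the water library, a ratio of 78.4-fold lower (13.7 to 3136). By the inferred numbers, a listed 0 FPKM was thus not an absence of reads for this pair of genes. XLOC_018857 had 0 reads in the yeast library, against 36 in the water library (25.2 to 49.8). With 3 reads put in place of its 0, XLOC_018857 was 11.5-fold lower in the yeast library, which is not a limit from counting error. Its extreme value of -8.14 in the authors' deposited table therefore belongs to the gene with the fewest reads of the 7.

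**Figure D2:**
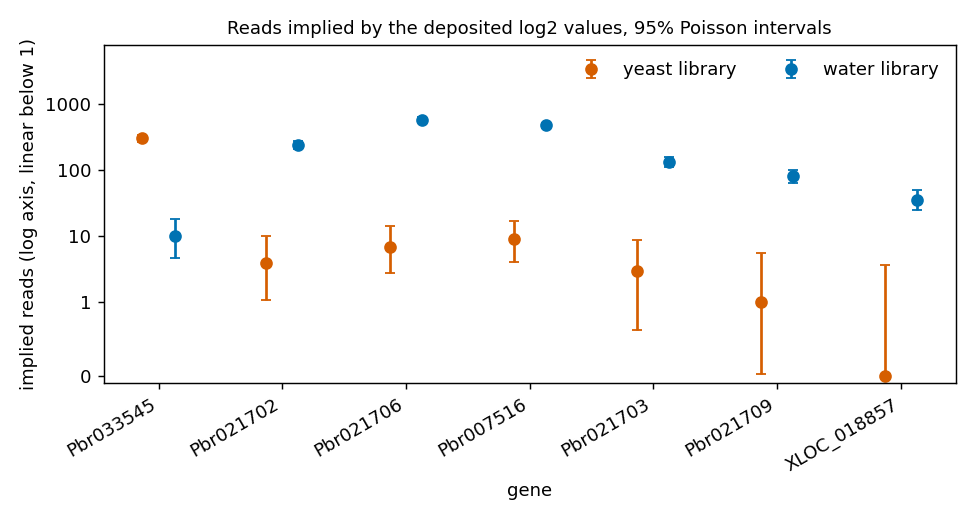
Reads implied by the deposited log2 values for each of the 7 genes, yeast library in orange and water library in blue, on a log axis that is linear below 1, with exact 95% Poisson intervals for counting error only. Pbr033545 has 306 reads in the yeast library against 10 in the water library, and the other 6 genes have 0 to 9 reads in the yeast library against 36 to 587 in the water library.

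The 6 genes lower with the yeast summed to 0.585 FPKM in the yeast library, against 42.4 FPKM in the water library. In reads they summed to 24 in the yeast library, against 1564 in the water library, or 62.3-fold lower after this scaling (41.7 to 97.6). With Pbr033545 included, the 7 genes summed to 6.48 FPKM in the yeast library, against 42.5 FPKM in the water library. The summed level was thus 6.56-fold lower in the yeast library even with Pbr033545 counted in. In reads the 7 genes had 330 in the yeast library and 1574 in the water library, 4.56-fold lower with the yeast (4.05 to 5.15).

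Among these 7 called genes, different genes held most of the reads in the 2 libraries. As each was chosen from the genes called different, such a split is part of the choice. Genes of the same name that were not called are left out of these shares. Pbr033545 held 92.7% of the 7 genes' reads in the yeast library (89.4% to 95.3%), against 0.635% in the water library (0.305% to 1.17%). By FPKM, which takes account of gene length, it held 91.0% in the yeast library, against 0.189% in the water library. In the water library Pbr021702, Pbr021706 and Pbr007516 held 29.9%, 26.3% and 21.2% of the summed FPKM. Pbr021703, Pbr021709 and XLOC_018857 followed with 11.1%, 6.92% and 4.50%.

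**Figure D3:**
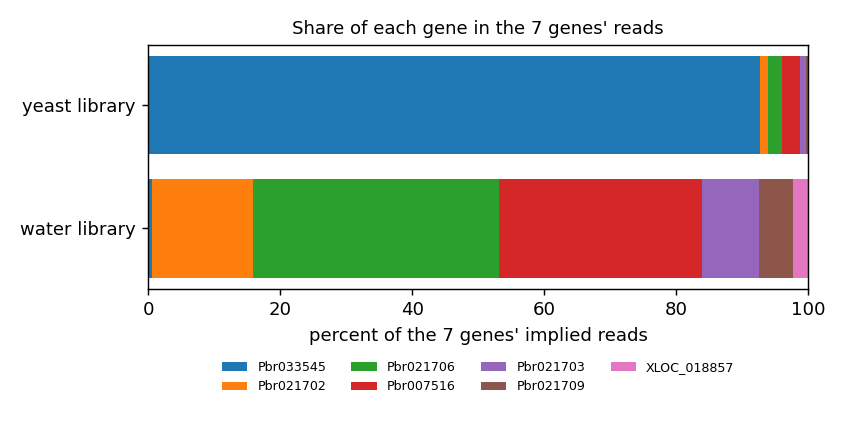
Percent of the 7 genes' implied reads that belongs to each gene, yeast library above and water library below. Pbr033545 fills 92.7% of the bar of the yeast library and 0.635% of that of the water library; shares in reads are not corrected for gene length.

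Neighbours in the order of levels were not all separable by counting error. In the water library the counting interval of Pbr021702 ran from 11.1 to 14.4 FPKM and overlapped that of Pbr021706, at 10.3 to 12.1 FPKM. Pbr007516, at 8.21 to 9.83 FPKM, lay below both. Pbr021703, at 3.95 to 5.57 FPKM, did not overlap Pbr021709, at 2.34 to 3.65 FPKM, but the interval of Pbr021709 met that of XLOC_018857, at 1.34 to 2.65 FPKM. In the yeast library Pbr033545, at 5.25 to 6.59 FPKM, stood alone. Pbr021702, Pbr007516 and Pbr021706 had overlapping intervals there, which together ran from 0.0578 to 0.644 FPKM.

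The number of reads per FPKM grows with the length of a gene model and sorted the 7 genes into groups that the choice of genes had not used. In the water library Pbr021706 had 52.5 reads per FPKM and Pbr007516 had 53.6, and in the yeast library Pbr033545 had 52.0. Pbr021703 and Pbr021709, the pair with no Pfam family, had 28.9 and 27.9 in the water library. Pbr021702 and XLOC_018857 had 19.0 and 18.8 there. Read numbers are therefore not comparable between genes: Pbr021702 had fewer reads than Pbr021706 in the water library and yet the higher FPKM.

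For Pbr033545 the 2 deposited measures differed in the water library. There it had 125 reads per FPKM, against 52.0 in the yeast library. Its FPKM values alone give a 73.5-fold difference, beside the 32.0-fold of its reads. FPKM ratios and read ratios were compared for 207 listed genes with reads and FPKM above 0 in both libraries. Genes with an FPKM barely above 0 were left out. Among those left out was XLOC_026729, at 1.5e-05 FPKM in the yeast library, whose ratios lay further apart than those of Pbr033545. Both ratios lay within 1.5-fold of each other for 192 of the 207. Of the 207, 3 differed by at least as much as Pbr033545, itself included. For Pbr021702, Pbr021706 and Pbr007516 the FPKM values gave 50.5-fold, 77.7-fold and 47.5-fold lower levels with the yeast, close to their read ratios. The direction of Pbr033545 was the same in both measures, and the cause of the gap was not tested.

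Some identifiers of the group lie close in number, Pbr021702, Pbr021703, Pbr021706 and Pbr021709. Whether the numbers follow the order on a chromosome is not stated. Genes this alike in name may have reads in common, and no source used here says how these were divided, so the levels of these 4 as separate genes are uncertain. Of 14 other genes within 5 numbers of these, 6 were above 0 FPKM, and 2 of the 6 were higher and 4 lower in the yeast library. The low ones among the 4 were Pbr021705, at 0.0724 FPKM in the yeast library and 0.210 FPKM in the water library, Pbr021707, listed at 0 in the yeast library and at 0.134 FPKM in the water library, and Pbr021699, listed at 0 in the yeast library and at 0.0325 FPKM in the water library. Pbr021714 had 15.6 FPKM in the yeast library and 17.0 FPKM in the water library. The 4 genes of the group thus stood among genes that were mostly silent or level.

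Around Pbr033545 all 6 of the 10 nearest identifiers with a level above 0 were higher in the yeast library. By the 2-fold rule Pbr033548 and Pbr033550, with ratios of 1.17 and 1.11 on the log2(FPKM + 1) scale, were among the 3.32% of genes on the higher side. Pbr033548 had 2.35 FPKM in the yeast library, against 0.490 FPKM in the water library. Pbr033550 had 2.17 FPKM in the yeast library, against 0.466 FPKM in the water library. Pbr033549 had 0.802 FPKM in the yeast library, against 0.376 FPKM in the water library. Pbr033543, at 0.186 FPKM in the yeast library and 0.0430 FPKM in the water library, was very low in both. So was Pbr033541, at 0.130 FPKM in the yeast library and 0.0241 FPKM in the water library. Pbr033540 was nearly level, at 11.5 FPKM in the yeast library and 10.4 FPKM in the water library. Around Pbr007516 all 10 nearest identifiers were above 0, with 4 higher and 6 lower in the yeast library. The 6 lower ones were all below 1 FPKM, led by Pbr007512 at 0.187 FPKM in the yeast library and 0.868 FPKM in the water library. Pbr007515 had 0.0824 FPKM in the yeast library, against 0.543 FPKM in the water library. The 4 higher ones were the well expressed Pbr007511, Pbr007517, Pbr007518 and Pbr007519, of which Pbr007518 had 160 FPKM in the yeast library and 112 FPKM in the water library. None of these neighbours was called by the authors, and the files give them no description. Over all 29936 genes above 0 in either library, 50.4% were higher and 49.6% lower in the yeast library by any amount.

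**Figure D4:**
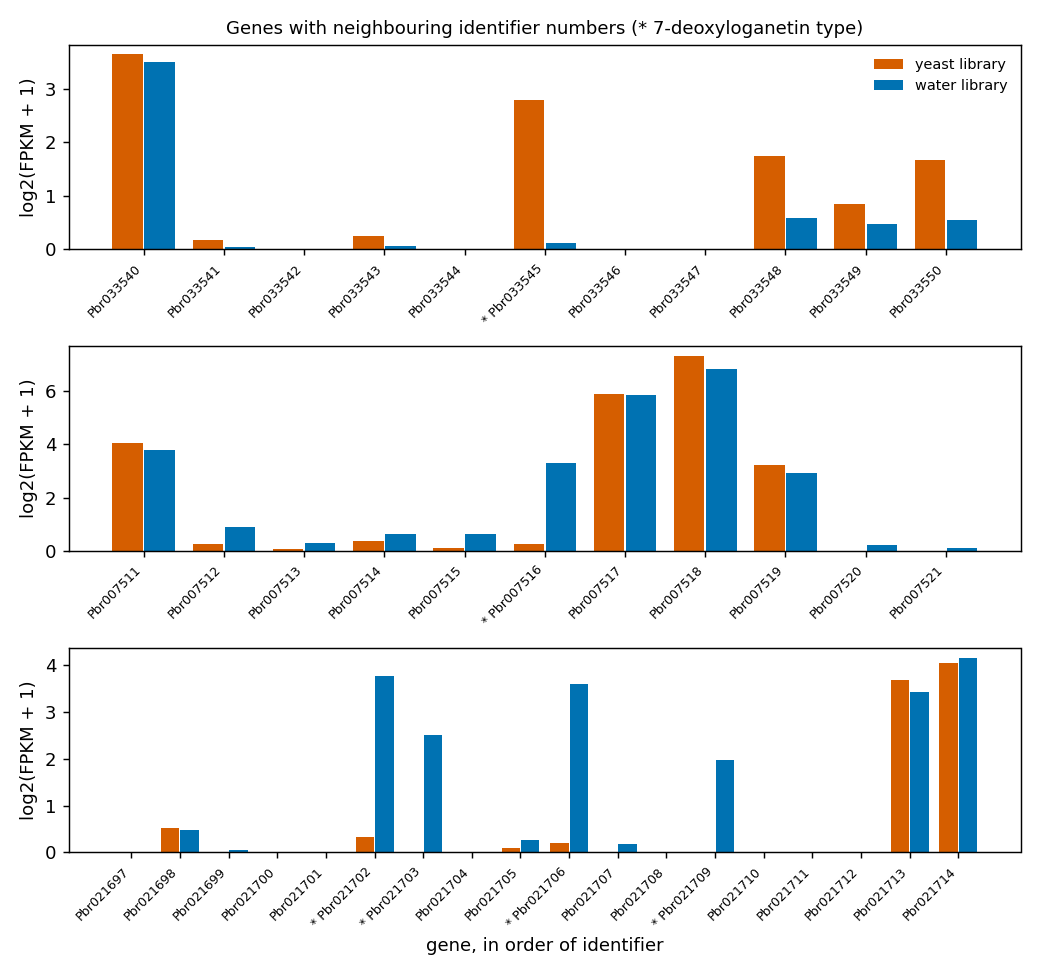
Levels, as log2(FPKM + 1), of genes whose identifier numbers lie within 5 of Pbr033545 (top), Pbr007516 (middle) and the 4 genes from Pbr021702 to Pbr021709 (bottom), with the yeast library in orange left of the water library in blue; a star marks the 7-deoxyloganetin type. The starred genes of the lower 2 panels are high in the water library, and most genes beside them are near 0 or at like levels in both libraries.

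Outside the 7 genes, the authors called 7 further UDP-glycosyltransferases, 2 higher and 5 lower in the yeast library. These 7 further genes were 28.6% higher, beside 37.5% of all called genes. The whole list of 14 was thus 3 higher and 11 lower, or 21.4% higher, a share that includes the 7 chosen genes. Of the 12 that reached 1 FPKM in a library, 2 passed the 2-fold rule on the higher side, or 1 with FPKM rescaled to equal sums, and 10 passed it on the lower side. The median log2 ratio was -2.59 for these 12 and -2.67 for the 5 of them outside the 7 genes. The higher pair is described as UDP-glycosyltransferase 86A1-like, with Pbr024936 at 1.24 FPKM in the yeast library against 0.0797 FPKM in the water library. Pbr020554 had 0.552 FPKM in the yeast library, against 0.0262 FPKM in the water library. Pbr033545 was thus the only called UDP-glycosyltransferase above 2 FPKM in the yeast library.

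Among the lower ones, the UDP-glycosyltransferase 83A1-like gene Pbr038339 had the highest level of all 14 genes, 0.657 FPKM in the yeast library against 14.1 FPKM in the water library. It also kept 32 reads in the yeast library, against 716 in the water library, and was 21.4-fold lower (15.02 to 31.5). Pbr038337, of the same name, was listed at 0 in the yeast library with 1 read, against 0.657 FPKM in the water library with 32 reads. A pair of loci is described as crocetin glucosyltransferase-like, after the gardenia enzyme that glucosylates the carotenoid derivative crocetin. XLOC_026731 had 0.119 FPKM in the yeast library, against 9.38 FPKM in the water library. XLOC_026732 was listed at 0 in the yeast library, with 0 reads, against 2.45 FPKM in the water library with 62 reads. XLOC_026729, described from apple as an anthocyanidin 3-O-glucoside 5-O-glucosyltransferase 2-like gene, an enzyme that adds a further glucose to anthocyanins, was listed at 1.5e-05 FPKM in the yeast library with 11 reads, against 5.35 FPKM in the water library with 287 reads. Its FPKM in the yeast library is thus far below what its reads there would give, and the cause was not tested. Their read ratios, 24.96-fold for XLOC_026729 and 57.7-fold for XLOC_026731, lay in or below the range of the 6 genes lower with the yeast.

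**Figure D5:**
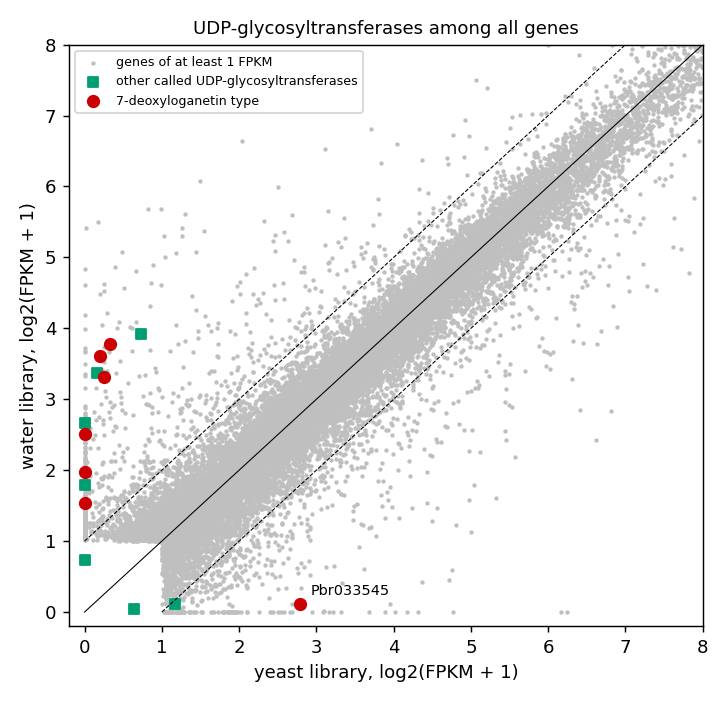
Level in the yeast library (x axis) against the water library (y axis), both as log2(FPKM + 1), with genes of at least 1 FPKM in either library in grey, the 7 genes of the 7-deoxyloganetin type as red circles and the 7 other called UDP-glycosyltransferases as green squares. The solid line marks equal levels and the dashed lines 2-fold; genes above 8 on either axis are outside the plot, Pbr033545 is the red circle at the lower right, and the other 6 circles lie at the left edge.

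Genes that could act beside such enzymes were few among the called ones. No called gene was described as a further enzyme of iridoid or secoiridoid synthesis. None was described as a beta-glucosidase, the enzymes that remove such sugars, so each of these lists had 0 members. Only 0.846% of all genes were called, and only these are described. A count of 0 therefore does not show that such genes were absent from the tissue. The list of UDP-sugar supply caught only the pectinesterase 2-like genes Pbr012741 and Pbr015755, through a shared domain name, and so held 0 enzymes of that supply. Its 2 genes were both lower in the yeast library, Pbr012741 at 0.794 FPKM in the yeast library against 12.0 FPKM in the water library, and Pbr015755 at 1.71 FPKM in the yeast library against 32.7 FPKM in the water library. Other glycosyltransferases were 2 higher and 5 lower, 28.6% higher beside 37.5% of all called genes. Among them, the cellulose synthase-like H1 gene Pbr018127 had 8.41 FPKM in the yeast library, against 0.573 FPKM in the water library. The galacturonosyltransferase-like 1 gene Pbr022858, of a family that acts on cell wall polymers, had 1.27 FPKM in the yeast library, against 15.5 FPKM in the water library. Pbr017240, of the same name, had 1.77 FPKM in the yeast library, against 13.6 FPKM in the water library. Pbr041814, also cellulose synthase-like H1, had 1.11 FPKM in the yeast library and was listed at 0 in the water library.

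Glutathione S-transferases and ABC transporters, which conjugate and move small molecules in detoxification, were 0 higher and 3 lower. Of all called genes 37.5% were higher, and nothing is read from the small counts of this paragraph. ABC transporter G family member 35-like (Pbr019124) had 3.27 FPKM in the yeast library, against 26.1 FPKM in the water library. Glutathione S-transferase U8-like (Pbr020346) had 0.802 FPKM in the yeast library, against 7.52 FPKM in the water library. ABC transporter B family member 11-like (Pbr037777) had 0.208 FPKM in the yeast library, against 7.19 FPKM in the water library. The list of BAHD acyltransferases, which add acyl groups to such metabolites, was 4 higher and 2 lower. Only the vinorine synthase-like gene Pbr035166, at 0.601 FPKM in the yeast library and listed at 0 in the water library, and the shikimate O-hydroxycinnamoyltransferase-like gene Pbr022425, at 78.3 FPKM in the yeast library against 8.75 FPKM in the water library, are of that family by description. The other 4 were the glycosyltransferases Pbr041814, Pbr018127, Pbr017240 and Pbr022858, matched through a shared domain name. The fruit tissue could not be checked against marker genes, since only called genes are described, and 0 of them matched the patterns for photosynthesis or cuticle.

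The called genes most like each of the 7 were found by the distance between their log2(FPKM + 1) values in the 2 libraries, a likeness over 2 values only. Nearest to Pbr033545 was the reticuline oxidase-like gene Pbr042050 (distance 0.10), at 5.44 FPKM in the yeast library against 0.0830 FPKM in the water library, followed by the cystinosin homologue Pbr032253 (0.22), at 5.94 FPKM in the yeast library against 0.260 FPKM in the water library. The next was XLOC_008581 (0.27), of uncharacterized product. Nearest to Pbr021702 was polygalacturonase QRT3-like Pbr023154 (0.08), at 0.191 FPKM in the yeast library against 12.4 FPKM in the water library. The nudix hydrolase 1-like gene Pbr013234 followed (0.10), and then Pbr021706 itself (0.21). Nearest to Pbr021706 was the alpha carbonic anhydrase 7-like gene Pbr030321 (0.10), followed by Pbr013234 (0.14) and Pbr023154 (0.15).

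Nearest to Pbr007516 were the probable acyl-activating enzyme 12 gene Pbr008461 (0.09), the 4-hydroxycoumarin synthase 1-like locus XLOC_012917 (0.09) and the hypothetical gene Pbr011787 (0.10). Pbr021703 had XLOC_032966 (0.0019), of hypothetical product, the mechanosensitive ion channel 10-like gene Pbr031694 (0.10) and XLOC_006484 (0.12) as its nearest genes. XLOC_032966 was listed at 0 in the yeast library and at 4.70 FPKM in the water library, but the authors' deposited table gives it a log2 fold change of 2.67, opposite to its FPKM and to Pbr021703. Those of Pbr021709 were Pbr001779 (0.02), the transcription factor bHLH92-like gene Pbr040944 (0.04) and the patatin-like protein 2 locus XLOC_013483 (0.07). Those of XLOC_018857 were the NAC factor NAM-1-like gene Pbr021868 (0.0015), the patatin-like protein 2 gene Pbr012334 (0.03) and the TIFY 10B-like gene Pbr040357 (0.03). Among all these, Pbr021706 was the only one of the 7 genes that came among the nearest 3 of another.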

How the data were processed

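RNA libraries were made with Illumina TruSeq reagents, per the labels' protocols. The authors deposited FPKM values of 45022 genes in 2 libraries and a table of 381 called genes with a log2 fold change of yeast over water, per the file headers. Per the submitters' processing notes, the tools included Bowtie 0.12.2. Not given in the sources used here are the counter, build, annotation and comparison tool. The adjusted p-values deposited by the authors were left aside.

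No test was made, as each group has 1 library. Ratios were log2((yeast + 1)/(water + 1)), over genes of at least 1 FPKM in either library, with a 2-fold size rule. Read numbers were solved from the deposited log2 values as (yeast reads × step + 1)/(water reads × step + 1), with a step per library fitted on genes listed at 0, up to 200 reads in the lower and 5000 in the higher library. They were used after the values were seen. On simulated data 371 of 371 pairs of read numbers were recovered. These data were made without noise by the same formula, so this checks the solving alone. Whether the authors' values were made by that formula was not tested. No library total is in the files used. Read ratios were scaled by the ratio of the steps, which is not known to be the ratio of depths.

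Members and lists were chosen with earlier results of these data known, and lists were matched by text. Named were all members, all called UDP-glycosyltransferases, the 2 highest and 2 lowest of other lists, the 3 nearest genes and identifiers within 5. None of the 7 identifiers was in the reference gene table (0 of 7), so no coordinates are given. Python 3.11.15, pandas 2.3.3 and scipy 1.17.1 were used. Alternatives were other pseudocounts, filters, scalings, folds, sources and definitions.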

Additional observations from a re-analysis of the deposited data

How the results depend on the processing

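Directions of the 7 genes were the same under all 41 alternatives computed for their ratios, but this is no independent check. A pseudocount cannot change the sign of a ratio, and the rescalings moved ratios by far less than their size. The deposited values, from which the read numbers were solved, had served to choose the genes. The sizes depend on the pseudocount. With a pseudocount of 0.1 FPKM the log2 ratio was 5.06 for Pbr033545, -4.97 for Pbr007516, -5.19 for Pbr021702, -5.59 for Pbr021703, -5.53 for Pbr021706, -4.93 for Pbr021709 and -4.33 for XLOC_018857. With a pseudocount of 5 FPKM the values, in the same order of genes, were 1.10, -1.43, -1.75, -0.96, -1.65, -0.67 and -0.47. The authors' deposited table gives, in that order, 4.98, -5.66, -5.81, -5.38, -6.30, -6.13 and -8.14. Read numbers, a choice made after seeing the data, gave 4.999, -5.68, -5.85, -5.44, -6.33 and -6.29 for the first 6, and no value for XLOC_018857 with its 0 reads. Rescaling to equal sums lowers ratios by up to 0.11 and to a median of 0 by up to 0.01. A value was taken as moved when it differed by at least 1 on the log2 scale, or a count by over 1.5 times.

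Of the 7 genes, 3 were at least 2-fold lower with a pseudocount of 5 FPKM, and 3 with at least 5 FPKM in either library. With the 9 called genes of the protein family in place of the 7, 2 were higher and 5 lower. That set lacks Pbr021703 and Pbr021709 and holds other UDP-glycosyltransferases. For the 14 UDP-glycosyltransferases the higher count was 1 with a pseudocount of 5 FPKM, with at least 5 FPKM, with FPKM rescaled to equal sums, at 4-fold and without the 7 genes. The lower count was 6 with a pseudocount of 5 FPKM and with at least 5 FPKM, and 4 without the 7 genes, which removes genes by construction. Of all genes, 5.96% were at least 2-fold higher and 4.87% lower with a pseudocount of 0.1 FPKM, 1.21% and 1.08% with 5 FPKM, 1.67% and 1.51% with no filter, and 0.637% and 0.858% at 4-fold. Fewer genes pass a stricter filter or size rule by construction, and low genes shrink towards 0 under a larger pseudocount. The shares with no filter are lower because they are taken over all 45022 genes in place of 22603. The same genes pass there, since 2-fold with a pseudocount of 1 FPKM already needs 1 FPKM. No paired analysis was possible because each group has 1 library. Counting error limits the lower library of each gene, which held 0 to 10 reads.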

Other observations

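A listed 0 FPKM with reads behind it was not particular to Pbr021703 and Pbr021709: 37 called genes were listed at 0 FPKM in a library in which at least 1 read was implied. Pbr041814, a cellulose synthase-like H1 gene, had 93 reads in the yeast library and 5 reads in the water library, where it was listed at 0. The median gap between the log2 FPKM ratio and the log2 read ratio was 0.12 over the 207 called genes compared above, which leave out genes with an FPKM barely above 0. Among genes with a deposited fold above 100, the fold less 1 was a whole number of steps for 65 of 67 listed at 0 in the yeast library. The same held for 21 of 23 listed at 0 in the water library.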
